A study of Mus musculus with 6 samples.

Results

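The genes described here are 9 genes of the vessel wall's mural cells, namely Acta2, Myh11, Tagln, Cnn1, Tpm2, Myl9, Des, Rgs5 and Cspg4, in endothelial cells (EC) sorted from mouse lung. They were chosen by name among the 12623 genes of the table, and each of the 9 had a row. Transcript levels came from 6 libraries of C57BL/6N mice, 3 from infant and 3 from young adult animals, with no transgene, allele or treatment named for either group. The comparison was made to find genes that change while lung EC become quiescent. Cells had been sorted from collagenase-digested lungs as living CD31+CD34+ cells free of PTPRC, LYVE1, LY76 and PDPN, so the gate selected against leukocytes, lymphatic EC and red cells. No antigen was used to exclude mural cells, and PDPN and CD34 are also carried by some fibroblasts. The paper checked the purity of the sorted cells by qPCR of marker genes, whose values were not used here. Its listed qPCR assays include Acta2 and Ptprc. It also reports that genes of cell contraction were among those repressed in adult EC. Whether a library came from 1 mouse or from several pooled mice was not given in the sources used here, so the p-values measure the spread between these libraries.

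Mural cells wrap the endothelium. Smooth muscle cells ring arteries and larger veins, and pericytes sit on capillaries within the basement membrane they share with EC. Both contract through actin and myosin filaments, and smooth muscle cells use forms of these proteins that differ from those of other cells. In the growing lung, alveolar myofibroblasts in the tips of the septa also make smooth muscle actin. None of the 9 genes is known as a gene typical of EC. The order followed below is thin filament (Acta2, Tpm2), thick filament (Myh11, Myl9), filament-binding proteins (Tagln, Cnn1), intermediate filament (Des) and pericyte surface and signalling proteins (Cspg4, Rgs5).

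Levels are given as RPKM (reads normalised to transcript length and to all mapped reads of the library), which can be compared between genes. A gene was called when its fold change exceeded 0.81 in size on the log2(RPKM + 1) scale at a Benjamini-Hochberg adjusted p under 0.05 in limma, fitted to all 12458 genes that reached an RPKM of 1 in at least 1 library. The paper gives an average transcriptome coverage, but the read depth of each library is not given in the sources used here. RPKM over all genes summed to between 267437 and 338740 per library, and infant replicate 2 stood apart from the other infant libraries. It had 11402 genes at an RPKM of 1 or more against 11756 and 11860. The 16 endothelial markers summed to 4654.6 to 6825.2 RPKM in infant and 7108.4 to 7508.8 RPKM in young adult libraries, none at 0, with Pecam1 (CD31) between 309.8 and 657.8 RPKM and Cdh5 (VE-cadherin) between 213.8 and 316.9 RPKM. The 4 Y-linked genes of the table measured 2.1 to 21.9 RPKM in infant libraries and 0 RPKM in all young adult libraries, although the methods name female mice, so age and sex cannot be told apart.

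Infant EC libraries held transcripts of all 9 mural genes, and 8 of the 9 were called lower in young adult libraries, Rgs5 being the exception. Over all tested genes 8.1% were called lower and 3.33% higher. Summed over the 9 genes, the infant libraries held 220.7, 75.2 and 246.7 RPKM and the young adult libraries 14.6, 17.4 and 19.4 RPKM. All 9 genes were higher in every infant than in every young adult library, a pattern that 27.1% of all tested genes showed. The median log2 fold change was -2.63 for the 9 genes and -0.07 for all genes. In bulk libraries, fewer mural cells among the sorted cells and less RNA per cell cannot be told apart. 4 of the genes (Cnn1, Tpm2, Des and Cspg4) reached an RPKM of 1 in infant libraries only, so that passing the filter rested on the group in which they were high.

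**Figure D1:**
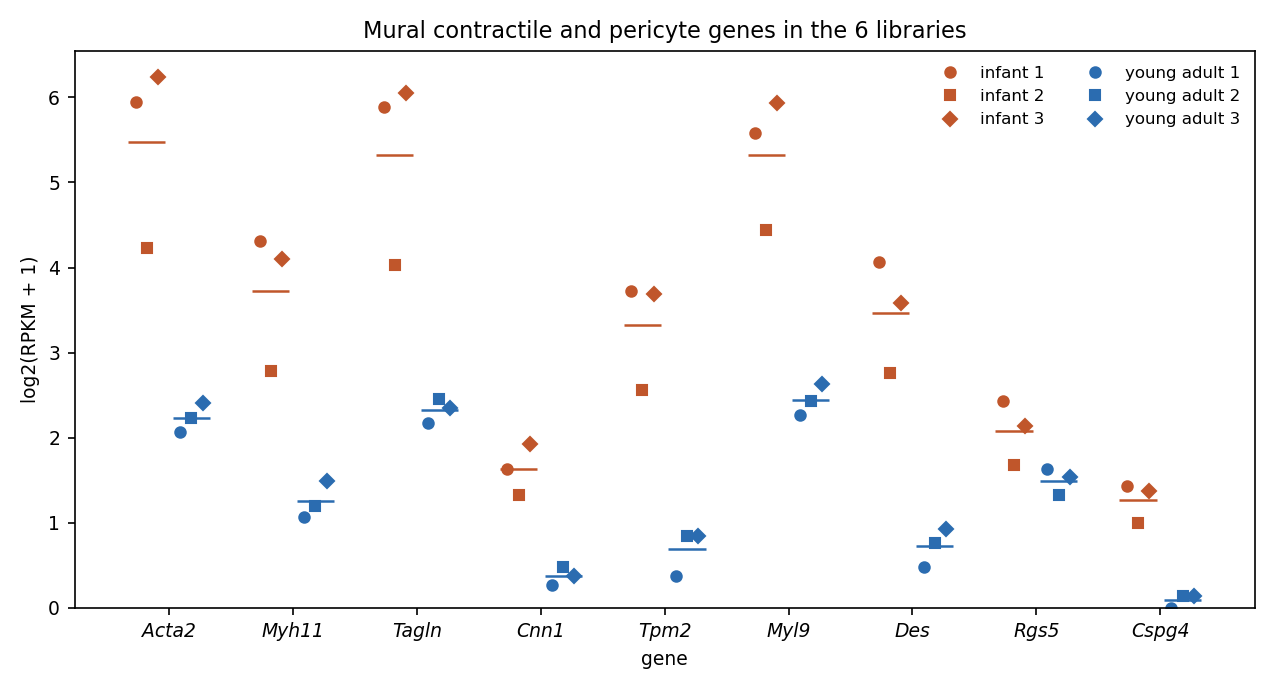
Level of the 9 mural genes in each library as log2(RPKM + 1), infant in orange and young adult in blue, with circle, square and diamond for replicates 1, 2 and 3 and a bar at the group mean. Every infant point lies above every young adult point of the same gene, by the smallest margin for Rgs5 (2.2 against 2.1 RPKM), and infant replicate 2 is the lowest infant library for each gene.

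Acta2 (NM_007392, chromosome 19, 34240336 to 34255585, GRCm38.p6), which encodes smooth muscle alpha-actin, had the highest mean level of the 9 in infant EC, although Myl9 was above it in infant replicate 2. It measured 60.8, 17.8 and 74.4 RPKM in infant replicates 1, 2 and 3 and 3.2, 3.7 and 4.3 RPKM in the young adult replicates. The lowest infant library thus lay above the highest young adult library, and the spread was far wider among infant (51 ± 29.5, SD, n = 3) than among young adult libraries (3.73 ± 0.551). Mean RPKM was 13.7-fold higher in infant EC, and the log2 fold change was -3.24 ± 0.46 (SE; limma adjusted p 0.00425). Actin genes are near-identical over much of their coding sequence, so reads may be split between copies and the value of Acta2 is uncertain to that extent. Tpm2 (NM_009416, chromosome 4, 43513726 to 43523583), which encodes the beta-tropomyosin wound along the thin filament, measured 12.2, 4.9 and 11.9 RPKM in infant libraries against 0.3, 0.8 and 0.8 RPKM in young adult libraries. Its mean fell 15.3-fold (14.1 to 16.7 when each value may be off by the rounding half-step of 0.05), with a log2 fold change of -2.63 ± 0.31 (adjusted p 0.00215).

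Among thick filament genes, Myh11 (NM_001161775, chromosome 16, 14194527 to 14292188) encodes the smooth muscle myosin heavy chain, the most restricted marker of the smooth muscle lineage. It measured 18.8, 5.9 and 16.1 RPKM in infant libraries against 1.1, 1.3 and 1.8 RPKM in young adult libraries. This was a 9.71-fold difference in mean RPKM and a log2 fold change of -2.48 ± 0.36 (limma adjusted p 0.00454). The table held 2 Myh11 transcript rows, which differed by at most 0.1 RPKM in any library. Myl9 (NM_172118, chromosome 2, 156775408 to 156781657), the regulatory light chain whose phosphorylation starts contraction, measured 47.0, 20.7 and 60.3 RPKM in infant EC. Young adult libraries held 3.8, 4.4 and 5.2 RPKM of it. The groups did not overlap, the ratio of means was 9.55 and the log2 fold change was -2.88 ± 0.34 (adjusted p 0.00224).

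Tagln (NM_011526, chromosome 9, 45929628 to 45936058) encodes transgelin, an actin-bundling protein of smooth muscle. It followed Acta2 closely, with 58.0, 15.4 and 65.2 RPKM in infant libraries against 3.5, 4.5 and 4.1 RPKM in young adult libraries (11.5-fold, log2 fold change -3.00 ± 0.48, limma adjusted p 0.00582). The span of Tagln overlaps that of Pcsk7 by 2480 bases, and reads without strand cannot separate the pair there. Pcsk7 itself reached at most 14.3 RPKM in infant and 15.3 to 17.6 RPKM in young adult libraries. Cnn1 (NM_009922, chromosome 9, 22099221 to 22109221), the calponin of differentiated smooth muscle, was scarce at both ages, at 2.1, 1.5 and 2.8 RPKM in infant libraries against 0.2, 0.4 and 0.3 RPKM in young adult libraries. Its log2 fold change of -1.25 ± 0.18 (adjusted p 0.00427) understates the ratio of means, which was 7.11 (5.95 to 8.73 within rounding).

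Des (NM_010043, chromosome 1, 75360292 to 75368579) encodes desmin, the intermediate filament of muscle cells that pericytes share. Infant libraries held 15.7, 5.8 and 11.0 RPKM and young adult libraries 0.4, 0.7 and 0.9 RPKM of it, a 16.3-fold difference of the means (log2 fold change -2.75 ± 0.30, limma adjusted p 0.00173). The end of Des overlaps the noncoding gene Gm15179 by 370 bases. Cspg4 (NM_139001, chromosome 9, 56865104 to 56899870), the NG2 proteoglycan on the pericyte surface, was the scarcest of the 9 genes. It measured 1.7, 1.0 and 1.6 RPKM in infant libraries, was listed at 0.0 in young adult replicate 1 and measured 0.1 RPKM in the other young adult libraries. Cspg4 was called (log2 fold change -1.18 ± 0.17, adjusted p 0.00404), but young adult values of 0.1 are a single rounding step, and the ratio of means of 21.5 could lie between 11.9 and 44.5.

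Rgs5 was the gene that was not called. It encodes a regulator that shortens G protein signalling and is one of the best known transcripts of pericytes (NM_009063, chromosome 1, 169655501 to 169695813). Infant replicates 1, 2 and 3 measured 4.4, 2.2 and 3.4 RPKM and young adult replicates 2.1, 1.5 and 1.9 RPKM. The lowest infant and the highest young adult library were thus a single rounding step apart. The log2 fold change was -0.59 ± 0.20 with a 95% interval from -1.04 to -0.13 and a limma adjusted p of 0.0643, and the ratio of means was 1.82. Without infant replicate 2 the log2 fold change was -0.79 at an adjusted p of 0.00565, just short of the fold threshold, and Rgs5 was not called in any of the 21 alternative fits. That shortfall holds on the log2(RPKM + 1) scale, on which low genes are understated. The ratio of mean RPKM without infant replicate 2 was 2.13, above the threshold. With a pseudocount of 0.1 and all libraries, the log2 fold change was -0.79 at an adjusted p of 0.0589. On the log2(RPKM + 1) scale, the interval of Rgs5 overlapped those of the other scarce genes, Cnn1 (-1.67 to -0.84) and Cspg4 (-1.56 to -0.79). It lay apart from those of Acta2, Myh11, Tagln, Tpm2, Myl9 and Des. The change of Rgs5 was nonetheless smaller than that of Cnn1 and Cspg4, whose ratios of means were 7.11 and 21.5 (11.9 to 44.5 within rounding). With a pseudocount of 0.1 their log2 fold changes were -2.47 and -3.24.

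In infant EC the levels fell into 3 tiers, which held within each infant library. Acta2, Tagln (46.2 ± 26.9) and Myl9 (42.7 ± 20.2 RPKM) came first, then Myh11 (13.6 ± 6.8), Des (10.8 ± 4.95) and Tpm2 (9.67 ± 4.13 RPKM). The genes share much of this spread, as each was lowest in infant replicate 2. Within each infant library Acta2 was above Tagln and Myh11 above Des. Rgs5 (3.33 ± 1.1), Cnn1 (2.13 ± 0.651) and Cspg4 (1.43 ± 0.379 RPKM) came last. In young adult EC, Myl9 (4.47 ± 0.702), Tagln (4.03 ± 0.503) and Acta2 led within their spread. Rgs5 (1.83 ± 0.306 RPKM) followed next, close to Myh11 (1.4 ± 0.361 RPKM), ahead of Des (0.667 ± 0.252) and Tpm2 (0.633 ± 0.289 RPKM), which it had trailed in infant EC. Among young adult libraries, replicate 1 was the lowest for 8 of the 9 genes, all but Rgs5. How many of all genes were lowest there was not counted. That library also had the fewest genes at an RPKM of 1 or more (10694 against 10804 and 10979).

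Most of these proteins have a relative that other cells use for the same job, and 7 of the genes were set beside one. In each pair the mural gene was a smaller percentage of its relative in every young adult than in any infant library. Beta-actin (Actb) measured 1822.9 to 2261.0 RPKM in infant and 2193.1 to 2501.7 RPKM in young adult libraries (log2 change 0.23, limma adjusted p 0.474). Acta2 amounted to 3.34%, 0.882% and 3.29% of Actb in infant replicates 1, 2 and 3 and to 0.132%, 0.169% and 0.172% in the young adult replicates. Muscle myosin Myh11 stood at 45.1%, 16.9% and 47.9% of the non-muscle heavy chain gene Myh9 in infant libraries and at 3.83%, 3.88% and 5.01% in young adult libraries. Thus Myh11 was high relative to Myh9 in infant replicates 1 and 3 and low relative to it in every young adult library. Tagln went from 30.9%, 5.37% and 29.1% of Tagln2 to between 1.27% and 1.62%. Myl9 similarly went from 29.4%, 8.91% and 29.7% of Myl12a to between 1.53% and 1.98%.

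On the log2(RPKM + 1) scale, the ratio of mural gene to relative was lower in young adult than in infant EC in all 7 pairs. The difference, young adult minus infant, was -3.46 for Acta2 to Actb, -3.34 for Tagln to Tagln2, -3.25 for Myl9 to Myl12a, -2.31 for Myh11 to Myh9, -2.25 for Des to Vim and -1.97 for Tpm2 to Tpm4. The groups did not overlap in any of the ratios. Each gave an exact two-sided permutation p of 0.1 (0.1 adjusted over the 7 pairs), the smallest that 3 against 3 libraries allow, so this test could not pass 0.05. For Cnn1 to Cnn2 the difference was -0.41 (exact permutation p 0.1), from -4.23 ± 0.13 to -4.64 ± 0.17 (SD, n = 3 each). Cnn2, a calponin of non-muscle cells, was itself called lower (log2 fold change -0.84, limma adjusted p 0.0117), although that call was lost when infant replicate 1 or 3 or young adult replicate 3 was left out. With a pseudocount of 5, which is above every Cnn1 value, the Cnn1 to Cnn2 difference turned to 0.35, and with 0.1 it was -1.61. The sign on the log2 scale thus depends on the pseudocount. Without a pseudocount, Cnn1 was 3.31%, 3.4% and 4.24% of Cnn2 in infant replicates 1, 2 and 3. It was 0.606%, 1.22% and 1.06% in the young adult replicates, where Cnn1 is only a few rounding steps above 0. Of the other relatives, Tpm4 was lower by less than the fold threshold (-0.66, adjusted p 0.00582), and Vim (-0.49, adjusted p 0.0566), Myh9 (-0.16, 0.362), Myl12a (0.37, 0.119) and Tagln2 (0.34, 0.19) had adjusted p above 0.05.

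**Figure D2:**
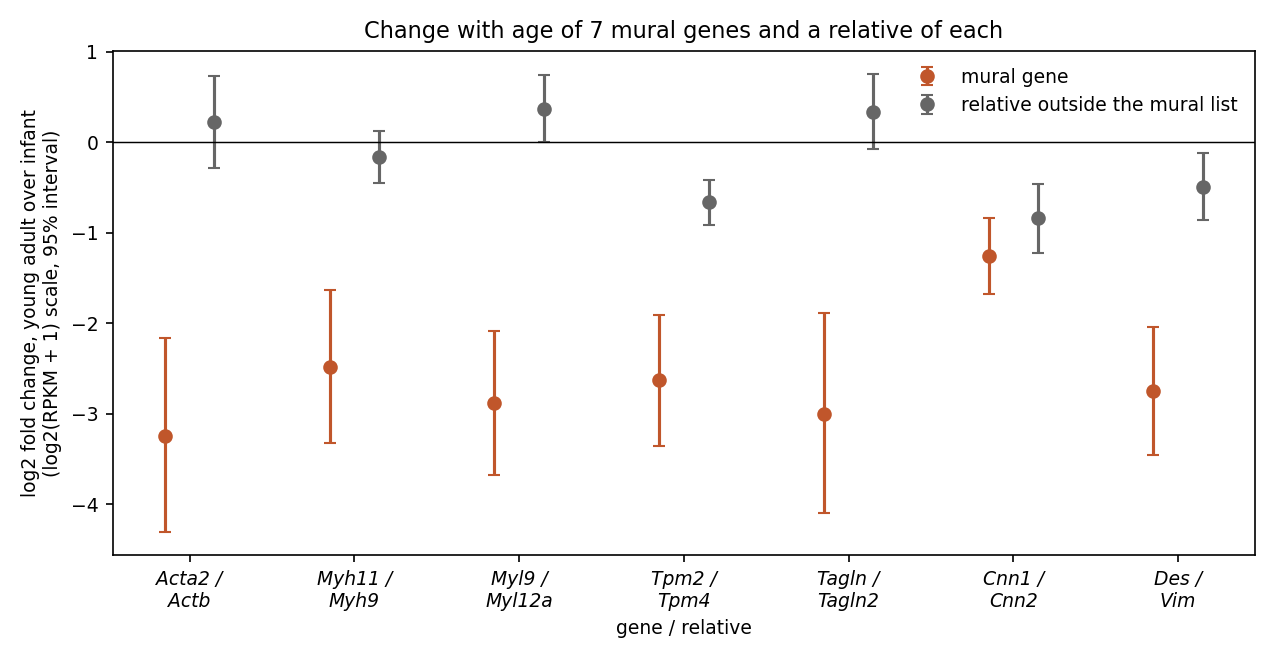
Log2 fold change of young adult over infant EC on the log2(RPKM + 1) scale for 7 mural genes (orange) and a relative of each (grey), with 95% intervals from limma (3 libraries per group). In 6 of the 7 pairs the intervals of gene and relative lie apart, and those of Cnn1 and Cnn2 overlap.

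Beside these pairs, the wider list of 13 non-muscle relatives had a median log2 fold change of 0.07, with 2 genes called lower and 0 higher. The 2 were Cnn2 and Myh10. Myh10, a non-muscle myosin heavy chain that smooth muscle and fibroblasts also make, measured 26.6, 3.7 and 22.5 RPKM in infant libraries against 1.0, 1.0 and 0.8 RPKM in young adult libraries (log2 change -2.91, limma adjusted p 0.0136). Its call was lost without young adult replicate 1 or 2.

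Smooth muscle genes of differentiated cells are switched on by serum response factor (SRF), which binds the CArG box, an element of CC, a run of A or T, and GG, together with the coactivators myocardin, MRTF-A (Mkl1) and MRTF-B (Mkl2). The 250 bases before a transcript start were therefore searched on both strands for this box and for CArG-like elements, in which 1 base of the A or T run is G or C, in RefSeq sequence of GRCm38.p6. A window was found for 7 of the 9 genes, all but Myh11 and Tagln. The start used by the RefSeq table need not be the outer end of the gene span given above. It lay 212 bases inside the span for Acta2, 56 for Myl9, 32 for Cnn1 and 29 for Tpm2, and at the end of the span for Des, Rgs5 and Cspg4. The windows of Acta2 and Myl9 held an element. These are shown 5′ to 3′ on the strand of the gene with the elements in capitals, for Acta2 with 10 bases on either side and for Myl9 as the part of the window outside the gene span.
Acta2, chr19:34255438-34255467, minus strand: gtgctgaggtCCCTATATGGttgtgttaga
Acta2, chr19:34255388-34255417, minus strand: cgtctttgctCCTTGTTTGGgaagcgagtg
Myl9, chr2:156775214-156775407, plus strand: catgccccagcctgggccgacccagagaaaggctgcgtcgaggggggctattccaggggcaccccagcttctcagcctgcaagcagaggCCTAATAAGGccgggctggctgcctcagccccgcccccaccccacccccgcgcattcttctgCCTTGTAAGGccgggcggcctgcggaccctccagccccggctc
The Myl9 window held a CArG box that began 161 bases before the start used and a CArG-like element at 99 bases. In Acta2, CArG-like elements began 84 and 34 bases before the start used, and both thus lay inside the outer gene span. Cnn1, Tpm2, Des, Rgs5 and Cspg4 held neither in this window. Over all 32851 windows of the RefSeq table, 1.47% held a CArG box and 8.59% a box or a CArG-like element. Of the 12 non-muscle relatives with a window, 3 held a CArG box, among them Actg1 and Cnn2, whose boxes are shown in capitals with 10 bases on either side.
Actg1, chr11:120348566-120348595, minus strand: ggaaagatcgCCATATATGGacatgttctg
Cnn2, chr10:79988534-79988563, plus strand: cgcttccacgCCTTATAAGGacatttgctc
Actg1, the cytoplasmic gamma-actin gene, measured 563.5 to 674.1 RPKM in infant and 578.2 to 740.7 RPKM in young adult EC (log2 change 0.07, limma adjusted p 0.781). A match is a description of letters and does not show that a factor was bound.

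Of 10 regulators 7 were in the table, and Myocd, Tead3 and Tbx18 were not analysed here. Their median log2 fold change was -0.45, and 1 was called lower and 0 higher. Srf measured 1.9, 2.0 and 1.9 RPKM in infant libraries against 1.6, 1.1 and 1.8 RPKM in young adult libraries (limma adjusted p 0.233). The coactivator genes Mkl1 (-0.45, adjusted p 0.0241) and Mkl2 (0.35, adjusted p 0.0591) stayed under the fold threshold. So did Gata6 (-0.77, adjusted p 0.0197), Tead1 (-0.73, adjusted p 0.0211) and Elk1 (-0.20, adjusted p 0.227). Gata6 and Tead1 were low, and their ratios of mean RPKM, infant over young adult, were 2.09 and 3.7 (3.09 to 4.53 within rounding for Tead1). The gene called was Fhl2, a LIM protein that binds SRF, at 1.7, 0.7 and 0.9 RPKM in infant libraries and 0.0, 0.2 and 0.0 RPKM in young adult libraries (-0.95 ± 0.21, adjusted p 0.0168). Its call was lost without infant replicate 1 or young adult replicate 1 or 3. It was also lost with a pseudocount of 5, a filter on mean RPKM, quantile normalization and a test against the fold threshold itself (limma treat). Over all alternatives between 0 and 3 regulators were called lower (0 without infant replicate 1, and 3 without infant replicate 2).

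Other smooth muscle genes were measured from a list of 18, of which 15 were in the table and Synpo2, Kcnmb1 and Aoc3 were not analysed here. 10 were called lower and 0 higher, with a median log2 fold change of -0.99. The largest change was that of Actg2, the smooth muscle gamma-actin gene, at 15.8, 5.2 and 17.4 RPKM in infant EC against 0.7, 1.0 and 0.5 RPKM in young adult EC (-2.85 ± 0.38, limma adjusted p 0.00337). Actg2 is among the near-identical copies that may share reads with Acta2. Pdlim3, which encodes a PDZ and LIM protein of the contractile filament, measured 48.3, 6.5 and 45.9 RPKM in infant libraries against 3.1, 3.8 and 1.8 RPKM in young adult libraries (-2.77 ± 0.67, adjusted p 0.0231), and it was called only in the fit without infant replicate 2 among the 6 fits without 1 library. Ppp1r14a, an inhibitor of myosin phosphatase, fell by 1.98 (adjusted p 0.00529) and Mustn1, a small nuclear protein of muscle and skeletal tissue, by 1.47 (adjusted p 0.00953) on the log2 scale. Csrp1 (-0.42, adjusted p 0.109) and Pdlim7 (-0.53, adjusted p 0.0894) were abundant in both groups and were not called. The count of 10 fell to 6 without infant replicate 1, infant replicate 3, young adult replicate 1 or young adult replicate 2. Mylk, the myosin light chain kinase gene, was among the 4 lost in each of these fits (19.6 RPKM or more in infant EC, 1.85-fold above young adult EC).

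Other pericyte genes were measured from a list of 20, of which 19 were in the table (Steap4 was not analysed here). Of these 15 were called lower and 0 higher, with a median log2 fold change of -1.79. Pdgfrb, the receptor through which EC recruit pericytes, measured 69.4, 17.4 and 57.1 RPKM in infant EC against 1.2, 2.2 and 1.9 RPKM in young adult EC (27.2-fold, log2 fold change -3.95 ± 0.46, limma adjusted p 0.00207). Gucy1a3, a subunit of the nitric oxide receptor guanylyl cyclase, measured 33.8, 18.9 and 41.6 RPKM against 1.9, 3.5 and 2.0 RPKM (-3.19 ± 0.29, adjusted p 0.000998). The endothelin receptor gene Ednra (-2.93, adjusted p 0.00148) and Ndufa4l2, a homologue of a respiratory chain subunit (-2.80, adjusted p 0.000326), completed the 4 largest falls. Mcam, which encodes an adhesion molecule that EC make as well, measured 55.1, 73.5 and 63.9 RPKM in infant EC against 91.2, 75.4 and 72.8 RPKM in young adult EC (0.31, adjusted p 0.141). With a pseudocount of 5, and in a test against the fold threshold itself (limma treat), 9 of the 19 were called.

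Relative to Pdgfrb the 9 genes did not keep a single proportion. Acta2 was at 0.876, 1.02 and 1.3 times the level of Pdgfrb in infant libraries and at 2.67, 1.68 and 2.26 times in young adult libraries. Myl9 was at 0.677, 1.19 and 1.06 times in infant and at 3.17, 2 and 2.74 times in young adult libraries. The steepest contrast was that of Rgs5, at 0.0634, 0.126 and 0.0595 times in infant and at 0.682 times or more in each young adult library. Des, at 0.226, 0.333 and 0.193 against 0.333, 0.318 and 0.474 times, overlapped between the groups. These young adult ratios rest on Pdgfrb values of 1.2 to 2.2 RPKM and are given without a test.

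**Figure D3:**
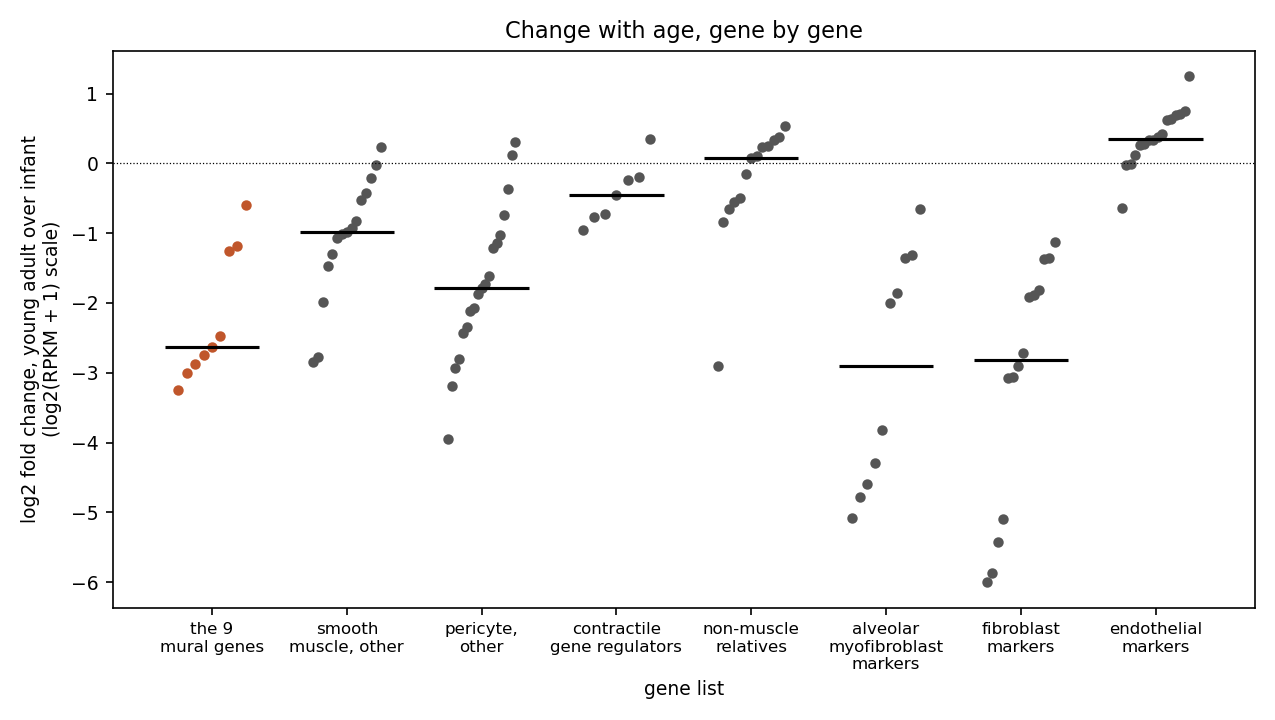
Log2 fold change of young adult over infant EC on the log2(RPKM + 1) scale for each tested gene (points) of 8 gene lists, with a bar at the median of each list and a dotted line at 0. The medians are -2.63 for the 9 mural genes, -0.99 and -1.79 for the other smooth muscle and pericyte genes, 0.07 for non-muscle relatives and 0.35 for endothelial markers.

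Infant replicate 2 held less of the mural genes than the other infant libraries. All 8 with an infant RPKM of at least 2 were lowest there among the infant libraries, a position that 34.6% of the 10603 tested genes above this level shared. Cspg4, below that level, was lowest there too. Tagln stood at 25% and Acta2 at 26.3% of the mean of replicates 1 and 3. Myh11 (33.8%), Myl9 (38.6%), Tpm2 (40.7%) and Des (43.4%) were in between, and Rgs5 (56.4%), Cspg4 (60.6%) and Cnn1 (61.2%) were reduced least. Even so, the infant replicate 2 level of 8 of the 9 genes exceeded the highest young adult value by more than the rounding step, and in each of the 6 fits without 1 library the same number, 8, was called lower. Without infant replicate 2 the log2 fold changes were larger, for example -3.86 for Acta2, -3.64 for Tagln and -2.95 for Myh11.

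The pericyte genes were not reduced together in that library. Pdgfrb stood at 27.5% and Ednra at 40.1% of the mean of replicates 1 and 3, close to the contractile genes. Abcc9 (33.7%), Kcnj8 (34.9%), Heyl (44.6%) and Gucy1a3 (50.1%) were reduced to a like extent, whereas Ndufa4l2 stood at 85.4%. Mcam, which EC make as well, stood at 123.5%. Over the 16 genes of the pericyte list with an infant RPKM of at least 2 the median was 86.8%, with 6 of 16 below both other libraries. Cox4i2, a respiratory chain subunit gene, measured 25.1, 38.4 and 55.9 RPKM in infant replicates 1, 2 and 3. Higd1b, a mitochondrial protein gene, measured 9.7, 11.4 and 15.8 RPKM there. Both were named after their values were seen, and both were called lower in young adult EC (-2.43 and -2.34, limma adjusted p 0.00312 and 0.0016). The medians were 64.7% for the other smooth muscle genes and 107.9% for the non-muscle relatives.

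**Figure D4:**
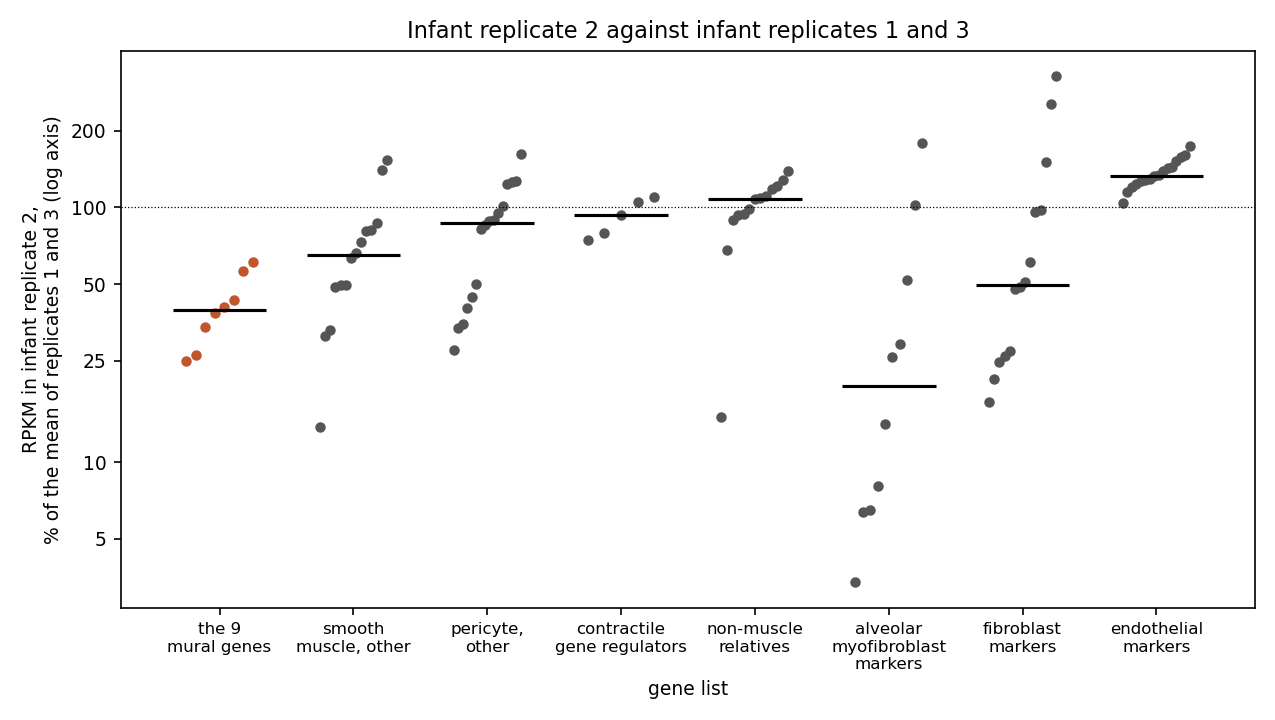
Level of each gene with an infant RPKM of at least 2 in infant replicate 2, as a percentage of its mean in infant replicates 1 and 3 (log axis, dotted line at 100%), for 8 gene lists with a bar at each median. The mural genes plotted lie between 25% and 61.2%, pericyte genes spread from 27.5% to 162.4%, and all endothelial markers lie above 100%.

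Markers of other cells moved with the mural genes. Of 10 alveolar myofibroblast markers 8 were called lower (median log2 fold change -2.91), and the list summed to 261.2 to 965.1 RPKM in infant and 67.4 to 86.8 RPKM in young adult libraries, with none at 0. The count was 5 without young adult replicate 1. Pdgfra, their defining receptor, was at 87.2 and 66.8 RPKM in infant replicates 1 and 3, at 2.6 RPKM in replicate 2 and at 0.2 to 0.6 RPKM in young adult EC (-4.29, limma adjusted p 0.0256). Among the fits without 1 library it was called only when infant replicate 2 was left out. It thus stood at 3.38% of the mean of replicates 1 and 3 in replicate 2, below any of the 9 mural genes. The list had a median of 19.9% there but ranged from 3.38% to 179.1%, with 8 of 10 markers below both other infant libraries. Hhip (101.7%) and Enpp2 (179.1%) were not reduced. Of 14 fibroblast markers 13 were called lower (median -2.81), with sums of 530.2 to 1716.4 RPKM in infant and 42.9 to 88.5 RPKM in young adult libraries and none at 0. Their median in infant replicate 2 was 49.7%, with a range from 17.2% to 327.3% and 9 of 14 below both other infant libraries. The part of these cells in the level of the 9 mural genes was not tested.

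Heart and skeletal muscle share some of the list, Des and Tpm2 among it. Of 14 markers 10 were in the table and 5 were called lower (median -1.10, sums of 62.8 to 116.2 RPKM in infant and 19.2 to 48.3 RPKM in young adult EC, none at 0). Tnnt2, cardiac troponin T, measured 6.2, 9.0 and 8.3 RPKM in infant libraries against 1.1, 3.5 and 1.0 RPKM in young adult libraries. Actc1, cardiac actin, measured 6.3, 8.8 and 14.5 RPKM in infant libraries against 0.8, 2.4 and 0.8 RPKM in young adult libraries. Both were thus higher in infant replicate 2 than in replicate 1, whereas the 9 mural genes were lower. Against the mean of replicates 1 and 3, Tnnt2 stood at 124.1% and Actc1 at 84.6% in replicate 2. Over the 9 markers with an infant RPKM of at least 2 the median was 94.5% (35% to 815.4%), with 2 below both other libraries. The part of muscle RNA in the result was not tested.

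Further markers were examined once. Of 16 endothelial markers 1 was called higher and 0 lower, and 6 were called higher without infant replicate 2. All 7 erythroid markers in the table were called lower, with sums of 9655.9 to 79864.4 RPKM in infant and 822.2 to 1350.7 RPKM in young adult EC. Of 13 epithelial markers 6 were called lower and 1 higher (the latter lost in 5 of the 6 fits without 1 library), with sums of 6569.7 to 11464.7 and 1855.1 to 8454.5 RPKM. Sftpc, the surfactant protein C gene, ranged from 1450.9 to 4883.1 RPKM over all libraries. Between 0 (without young adult replicate 2) and 3 of the epithelial markers were called lower without infant replicate 1 or 3 or young adult replicate 1 or 2. Of 13 leukocyte markers 4 were called lower, a number that became 0 when young adult replicate 1 was left out, 1 for young adult replicate 2, 2 for infant replicate 3 and 7 for young adult replicate 3. Ptprc, whose protein the sort excluded, measured 3.0 to 7.0 RPKM in infant and 0.2 to 1.8 RPKM in young adult libraries. Epcam and S100a8 were listed at 0 in a young adult library.

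The genes with the pattern most like that of the 9 across the 6 libraries were Lpar1, Csnk1d, Igf1, Pamr1 and Thbs1, among 6978 candidates with a mean RPKM of at least 5. Likeness was Pearson's r between the log2(RPKM + 1) of the candidate and the mean of the standardised values of the 9 genes. It lay between 0.9982 and 0.9991 for these 5, and is given without a test, since the points share the age difference and the low infant replicate 2. Lpar1, a lysophosphatidic acid receptor gene, measured 15.4, 3.8 and 13.7 RPKM in infant libraries against 0.2, 0.4 and 0.4 RPKM in young adult libraries (32.9-fold). Igf1, a growth factor gene, differed 34.7-fold, Pamr1 17.3-fold and Thbs1, the thrombospondin-1 gene, 7.6-fold. Csnk1d, a casein kinase gene, followed the pattern at a far smaller scale, with 28.3 to 32.5 RPKM against 23.7 to 24.7 RPKM, and was not called. By the same measure, each of the 9 genes except Rgs5 had an r of at least 0.976 with the mean of the other 8, and Rgs5 had 0.885.

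How the libraries were scaled moved the whole distribution. Of all calls 29.1% were higher in young adult EC with the values as deposited, 46.5% after quantile normalization, 16.6% after scaling to endothelial markers and 17.3% with globin genes left out of the total. The median of all genes moved from -0.07 to 0.04, -0.25 and -0.23 in these fits. The direction of the 9 genes was lower under each scaling, with a log2 fold change at or below -0.28 in all alternatives.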

How the data were processed

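Lung EC were profiled by RNA-seq in 6 libraries, 3 infant and 3 young adult, grouped by their titles. PicoPure RNA had been amplified from its poly(A) tails (SMARTer Ultra Low kit). The authors aligned paired-end reads to mm10 with STAR, used RefSeq annotation and tested genes with DESeq2, whose results were not used here. The deposited table holds the authors' RPKM values, 17241 transcript rows with 1 decimal and 0 further columns of per-sample values. The program that computed RPKM is not given in the sources used here. Since RPKM divides by all mapped reads, an abundant transcript such as globin lowers all others. Read counts were not used here. The paper states an average transcriptome coverage, but the read depth of each library, and with it the counting error, is unknown.

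Symbols that had turned into dates (24 rows) were restored from the accession. For each of 12623 genes the row with the highest mean was kept (2842 genes had more than 1 row). The 12458 genes that reached an RPKM of 1 in any library were fitted by age group with limma 3.58.1 (R 4.3.3, lmFit, eBayes with trend) on log2(RPKM + 1), and p-values were adjusted by Benjamini-Hochberg. The call threshold of 0.81 is the log2 of the study's fold. Folds on this scale are understated for low genes. The fit was tested on simulated data. Ratios used exact permutation tests.

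The genes and lists were chosen with earlier results of these data known. Named are the 9 genes, their relatives, the 4 largest changes among called genes of the smooth muscle, pericyte and regulator lists, uncalled genes of those lists with a mean RPKM of at least 20, defining markers, and the 5 nearest patterns. Pcsk7, Myh10, Actg1, Mylk, Srf, Mkl1, Mkl2, Gata6, Tead1 and Elk1 were added after their values were seen. The same holds for Abcc9, Kcnj8, Heyl, Cox4i2, Higd1b, Hhip, Enpp2, Epcam and S100a8. Alternatives were pseudocounts of 0.1 and 5, other filters, 4 other scalings, limma settings, a replicate block, other treatments of transcript rows and leaving out each library. Same-numbered libraries of the 2 groups did not deviate together (r of 0.028, -0.11 and -0.021), so numbers were not taken as pairs.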

Additional observations from a re-analysis of the deposited data

How the results depend on the processing

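Of the 9 mural genes, Acta2, Tpm2, Myl9 and Des kept their call in each of 21 alternatives. Against the fold threshold itself (limma treat) the calls of Myh11, Tagln, Cnn1 and Cspg4 were lost, so 4 of 9 were called, and 124 genes in all were called lower and 52 higher instead of 1009 and 415. With a pseudocount of 5 these were 338 and 240, and the calls of Cnn1 and Cspg4 were lost, as their low RPKM then hardly counts. Quantile normalization called 611 genes lower and ended the call of Cspg4. In that fit 46.5% of calls were higher, against 29.1%. Leaving out 1 library gave 514 to 1308 genes called lower (514 without young adult replicate 1, 551 without young adult replicate 2, 615 without infant replicate 1 or 3, 1308 without infant replicate 2). In all 6 of these fits 8 mural genes were called lower. Rgs5 had an adjusted p between 0.00565 and 1 over the alternatives and was not called in any. The Cnn1 to Cnn2 difference changed sign with a pseudocount of 5, to 0.35. Cspg4 had no value with a filter on the mean RPKM. The cause of these shifts was not tested.

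With the replicate block 959 genes were called lower and 412 higher, 8 of the 9 mural genes among the former, so the block changed no call of a mural gene. The depth of each library is unknown, and a step of 0.1 RPKM limits Cnn1, Tpm2, Des and Cspg4 in young adult libraries.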
